A study of Homo sapiens with 3 samples.

Results

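The genes of the RNA polymerases and of the general transcription factors were examined for ZBTB11 binding at their promoters. Members were the GENCODE protein-coding genes whose symbol matches POLR1, POLR2 or POLR3 followed by a letter, begins with GTF2 or GTF3, or is TAF followed by a digit, together with TBP, BRF1, BRF2, BDP1, POLRMT, TFAM and TFB2M. This rule gave 103 genes, with 102 symbols, among 20033 protein-coding genes, and POLR2J3 entered under 2 gene identifiers. The study mapped ZBTB11, a BTB domain protein with zinc fingers, on chromatin by ChIP-seq to learn whether it works as a regulator of transcription in lung cancer cells. All samples came from NCI-H1299, an established human lung adenocarcinoma cell line, with a WT genotype, no treatment and formaldehyde fixation. The series comprised 1 library precipitated with an antibody against ZBTB11, 1 precipitated with normal IgG as the negative control, and 1 Input library, which was not analysed here. With 1 library per antibody, no difference described here has a replicate check, no test was run, and intervals cover counting error only.

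The nuclear genome is read by separate polymerases. RNA polymerase I makes the large ribosomal RNA precursor with the promoter factor SL1. RNA polymerase II makes messenger RNA with TFIIA, TFIIB, TFIID, TFIIE, TFIIF and TFIIH, and RNA polymerase III makes transfer RNA, 5S ribosomal RNA and other small RNAs with TFIIIA, TFIIIB and TFIIIC. The nuclear systems share several small subunits and the TATA-box binding protein TBP, while mitochondria use the single-chain polymerase POLRMT with TFAM and TFB2M. Every nuclear member of these complexes, including the subunits of RNA polymerases I and III, is itself transcribed by RNA polymerase II.

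For each gene, the strongest ZBTB11 peak (the one with the largest −log10 p) within 3 kb of any annotated transcript start was taken. Its height is given as the number of fragments stacked at the summit, which was solved from the deposited fold enrichment and −log10 p. The fold enrichment compares the summit with the local background. The ZBTB11 list held 348392 peaks, with a median of 5 fragments and a genome-wide background of 1.35 fragments. The IgG list held 27877 peaks, with a median of 6 fragments and a background of 1.55. Because the deposited lists reach down to very weak peaks, a promoter peak was called strong at p of 1e-05 or less.

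Transcription machinery genes carried more ZBTB11 signal than protein-coding genes at large. A strong promoter peak lay at 78 of 103 members (75.7%), against 46.9% of all protein-coding genes. The median summit held 24 fragments in the members and 9 in all genes, with genes that had no peak counted as 0. At 100 or more fragments there were 17 members (16.5%), against 8.33% of all genes, and at 300 or more there were 10 members (9.71%) against 2.77%. Counting peaks of any strength separated the groups less, since 100 of 103 members had one and so did 87.7% of all genes. Among the 2003 genes in the top 10% by p-value, 22 were members, or 21.4% of the 103. The members nearest to the limit were POLR2L inside it, with 13 fragments and −log10 p of 5.04, and TAF15 outside it, with 9 fragments and 4.75.

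Promoters rich in CpG are common among housekeeping genes, so the counts were also taken within them. This comparison was chosen after the data were seen. Of 84 members matched by symbol to a RefSeq promoter (GRCh38.p14, 250 bases before to 50 bases after the start), 58 were CpG-rich, defined by at least 55% GC and an observed over expected CpG of at least 0.6. A strong ZBTB11 peak lay at 48 of these 58 (82.8%), against 64.2% of 9285 protein-coding genes with such a promoter. Their median summit held 34 fragments, against 15 for all CpG-rich genes.

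Signal varied widely within most polymerase systems. All 11 genes of the RNA polymerase II set had a strong peak, with a median of 71 fragments. They drew on 10 distinct peaks, because both POLR2J3 identifiers share 1 peak. The set includes POLR2M, which associates with the enzyme. For the factors of RNA polymerase III a strong peak lay at 9 of 10, with a median of 40. Its subunits reached 8 of 10 with a median of 24. RNA polymerase I with SL1 reached 7 of 10, with a median of 24.5. The general factors of RNA polymerase II other than TFIID gave 13 of 18 with a median of 25, and the subunits shared between polymerases gave 5 of 7 with a median of 20. TFIID with the paralogs of its subunits gave 21 of 33 with a median of 16, and 14 of 20 with a median of 20.5 without the 13 TAF11-like genes of a tandem array. The mitochondrial trio was bound at 3 of 3, with a median of 50. Over all protein-coding genes the share with a strong peak was 46.9%. The systems hold 1 to 33 genes, their ranges overlap, and no difference between them was tested.

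**Figure D1:**
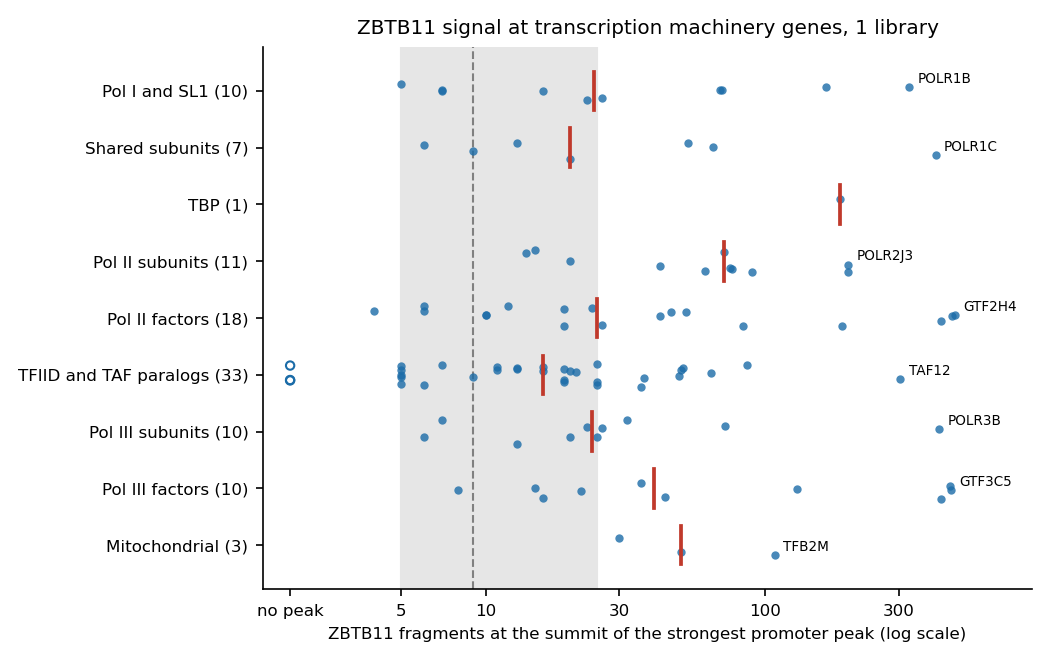
Fragments at the summit of the strongest ZBTB11 promoter peak (log scale) for each member, by system, with the number of genes in parentheses. Filled points are genes, open points are the 3 members without a peak, red bars are medians, and the grey band and dashed line are the quartiles (5 to 25) and the median (9) of all protein-coding genes. The same 6 rows exceed 300 fragments at their highest member and reach below 10 at their lowest.

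The sequences beneath the summits were read from hg38. The binding consensus that the study names is CCGGAAG or CAGGAAG, and it was searched on both strands within 50 bp of the summit. For each system, the site of a leading member that holds it is shown, to set the systems side by side. Each line gives 30 bases, 5′ to 3′ on the strand of the motif, with the motif in capitals.
POLR1B, RNA polymerase I (chr2:112542412-112542441, minus strand): tctcggtacacgCCGGAAGtagtggccgca
POLR1C, shared by RNA polymerases I and III (chr6:43516865-43516894, plus strand): agatgtgggcctCCGGAAGgtagacgtcca
TBP (chr6:170554244-170554273, plus strand): cctatggaaacaCAGGAAGtgacctatgct
POLR2D, RNA polymerase II (chr2:127858123-127858152, plus strand): ccaccagcgccgCCGGAAGcagaagcgcgg
GTF2H2C, TFIIH (chr5:69560156-69560185, minus strand): tttaggggcgccCCGGAAGtcattccgccg
TAF12, TFIID (chr1:28643076-28643105, minus strand): cggggagcggtgCCGGAAGtagtcggggag
POLR3K, RNA polymerase III (chr16:53047-53076, plus strand): ggcaaagggcaaCAGGAAGggcattaggac
GTF3C4, TFIIIC (chr9:132670024-132670053, minus strand): gccgttccggacCCGGAAGgggcggtggcg
POLRMT, mitochondrial (chr19:633612-633641, plus strand): gggaaaccccagCCGGAAGtagactcccag
The motif centre lay 45 bp from the summit in POLR1B, 24 in POLR1C, 47 in TBP, 28 in POLR2D, 19 in GTF2H2C, 10 in TAF12, 1 in POLR3K, 33 in GTF3C4 and 47 in POLRMT. The peak of POLR3K was weak, with 7 fragments, and it is shown because no stronger peak of an RNA polymerase III subunit held the consensus.

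For RNA polymerase I, the summit of POLR1B, which encodes its second-largest subunit, held 328 fragments (exact Poisson 95% interval 293 to 365). Its peak (chr2:112541999-112542880) had a 20.4-fold enrichment and centred 6 bp from the start. POLR1A, the largest subunit, had only 7 fragments (2.81 to 14.4) and did not reach the limit. The other subunits were low, with 26 fragments at POLR1E, 23 at POLR1G, 7 at POLR1H and 5 at POLR1F. The TAFs of SL1, which binds the ribosomal RNA gene promoter, all had strong peaks. Summits held 165 fragments at TAF1B (141 to 192), 70 at TAF1C, 69 at TAF1D and 16 at TAF1A.

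Among the shared subunits, POLR1C, common to RNA polymerases I and III, reached 407 fragments (368 to 449). POLR1D, its partner in both enzymes, reached 20 (12.2 to 30.9). Of the subunits found in all nuclear polymerases, POLR2H had 65 fragments, POLR2K had 53, POLR2L had 13, POLR2E had 9 and POLR2F had 6. Thus POLR2E and POLR2F fell outside the limit. TBP, used by every nuclear system, had 185 fragments (159 to 214) in a peak at chr6:170554004-170554786, with its summit 4 bp from the start.

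In RNA polymerase II, which makes messenger RNA, neither large subunit stood high. POLR2A with 15 fragments (8.4 to 24.7) and POLR2B with 14 (7.65 to 23.5) were the lowest of the 11 genes. The stalk subunits POLR2G and POLR2D held 76 and 71 fragments, POLR2M, which associates with the enzyme, held 75, POLR2I held 42 and POLR2C held 20. Among the POLR2J copies, POLR2J3 held 198 fragments and POLR2J held 90, above the other genes of the enzyme, and POLR2J2 held 61. The central 31 bases of these summits have 2, 4 and 2 exact copies in hg38 respectively, so fragments from the copies may be mixed there, which was not tested.

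In RNA polymerase III the second-largest subunit again stood out. POLR3B reached 418 fragments (379 to 460) with a 21.7-fold enrichment at chr12:106357389-106358205, centred 5 bp from the start, whereas the largest subunit, POLR3A, held 13 (6.92 to 22.2). POLR3D followed with 72, and POLR3C held 32, POLR3F 26 and POLR3E 25. The paralogs POLR3G and POLR3GL, alternative subunits of the same position, held 20 (12.2 to 30.9) and 23 (14.6 to 34.5). Their intervals overlap. POLR3K, with 7 fragments, did not reach the limit. The second-largest subunits of RNA polymerases I and III thus had at least 300 fragments each and that of RNA polymerase II had 14, while the largest subunits ranged from 7 to 15.

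The factors of RNA polymerase III included 3 of the 10 members above 300 fragments. In TFIIIC, which recognises the internal promoter of transfer RNA genes, the summits of GTF3C5 and GTF3C3 held 462 (421 to 506) and 458 (417 to 502) fragments, with intervals that overlap. GTF3C4 held 130, GTF3C1, the largest subunit, 44, GTF3C2 36 and GTF3C6 15. All 6 TFIIIC genes therefore passed the limit, over a wide range. GTF3A, which encodes TFIIIA for 5S genes, held 16.

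The TFIIIB genes also differed widely. BRF2, which serves promoters of the U6 type, held 426 fragments (387 to 468), 113 bp from its start. BRF1, the counterpart at transfer RNA and 5S genes, held 22 (13.8 to 33.3) and BDP1, common to both forms, held 8 (3.45 to 15.8), outside the limit. The BRF1 peak also lay 2287 bp from the nearest start in a stretch whose central 31 bases have 110 exact copies. Within 1 kb of a start, the strongest BRF1 peak held 16 fragments.

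The general factors of RNA polymerase II were headed by TFIIH, the complex that opens promoter DNA and phosphorylates the polymerase. GTF2H4 had the highest summit of all members, 476 fragments (434 to 521), at chr6:30907637-30908540 and 155 bp from its start. GTF2H2C and GTF2H2 held 465 and 425 fragments. These genes are near-identical copies on chromosome 5. The central 31 bases of their summits have 3 exact copies, and their sites with the consensus have the same 30 bases. Fragments of these copies may therefore be mixed, which was not tested. GTF2H3 held 188 (162 to 217), GTF2H5 19 and GTF2H1 12 (6.2 to 21). The rule takes in TFIIH genes by the GTF2H symbol only, and all 6 of these passed the limit. With each peak given to the gene of the nearest start alone 3 of 6 did, without GTF2H1, GTF2H3 and GTF2H5. The GTF2H1 summit lay 7 bp from the start of HPS5 on the opposite strand, and that of GTF2H5 lay 111 bp from the start of SERAC1.

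Other factors of this group were lower. GTF2E1 of TFIIE held 83 fragments and GTF2E2 held 6. GTF2F1 and GTF2F2 of TFIIF held 42 and 24, and GTF2A2 and GTF2A1 of TFIIA held 46 and 19. GTF2A1L, the germline paralog of GTF2A1, had 4 fragments, and GTF2B, the sole gene of TFIIB, had 10 with −log10 p of 4.45. In the TFII-I family, GTF2I held 52, GTF2IRD2B 26, GTF2IRD2 10 and GTF2IRD1 6, and the summits of GTF2IRD2 and GTF2IRD2B each have 2 exact copies.

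**Figure D2:**
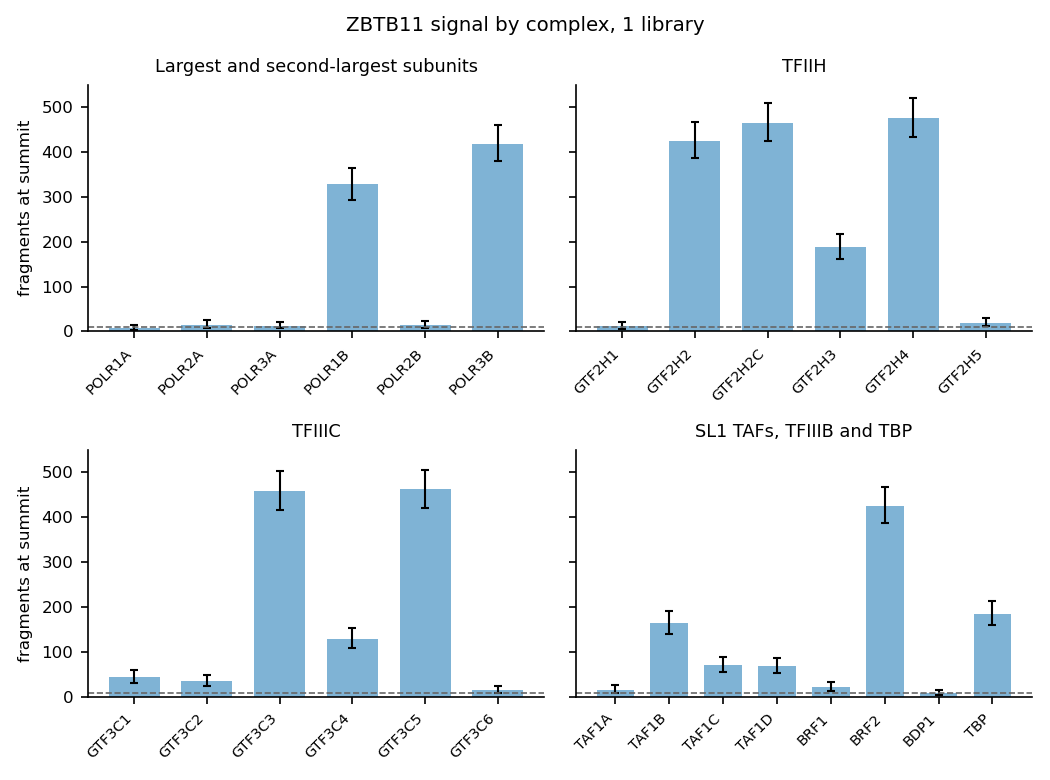
Fragments at the summit of the strongest ZBTB11 promoter peak for the genes of 4 sets, with exact Poisson 95% intervals as error bars and the median of all protein-coding genes (9) as a dashed line. High and low genes stand side by side within every set, such as POLR3B at 418 and POLR3A at 13, or BRF2 at 426 and BDP1 at 8.

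TFIID, which places TBP at RNA polymerase II promoters, had 11 of 13 subunit genes past the limit, with a median of 37 fragments. TAF12, a histone-fold subunit, held 304 (271 to 340) at chr1:28642639-28643428. TAF10 held 86, TAF13 64 and TAF1, the largest subunit, 51, whereas TAF3 held 6 and TAF4 held 5. Paralogs were mostly below their counterparts. TAF1L and TAF7L, germline paralogs of TAF1 and TAF7, had no ZBTB11 peak within 3 kb, and TAF7 held 20. TAF9 held 37 and TAF9B 7, and TAF6 held 19 and TAF6L 11. The order was the opposite for TAF4B with 25 (16.2 to 36.9) against 5 (1.62 to 11.7) at TAF4, and for TAF5L, a SAGA subunit, with 36 (25.2 to 49.8) against 11 (5.49 to 19.7) at TAF5. The TAF5L summit lay 334 bp from its own start and 209 bp from that of URB2 on the opposite strand. The TAF6 summit lay 398 bp from its own and 213 bp from that of CNPY4. Neither TAF5L nor TAF6 kept a strong peak with each peak given to the gene of the nearest start alone. TAF15, an RNA-binding protein associated with TFIID, held 9.

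The TAF11-like family, 13 genes in a tandem array on chromosome 5, had no summit above 25 fragments. Of these, 7 had a strong peak, but these 7 genes drew on 4 distinct peaks with 13 to 25 fragments, whose central 31 bases have 6 to 9 exact copies. TAF11L11 had no peak. TAF11 itself held 21 fragments. Without this family, 71 of 90 members (78.9%) had a strong peak.

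The mitochondrial genes all had strong peaks. TFB2M, the initiation factor, held 108 fragments (88.6 to 130), TFAM, which packages mitochondrial DNA, held 50 (37.1 to 65.9), and POLRMT held 30 (20.2 to 42.8).

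Peaks sat close to the starts. In the 78 members with a strong peak, the summit lay a median of 49 bp from the nearest start (quartiles 11 and 185.25), and within 100 bp in 47 of them (60.3%). Over all protein-coding genes with a strong peak the median was 120 bp, and 45.6% lay within 100 bp. By the canonical transcript, 44 summits were upstream of the gene, 23 in the 5′ UTR, 5 in an intron, 2 in a coding exon and 4 downstream. The 4 downstream summits belong to TAF11-like genes that share peaks or copies with their neighbours.

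**Figure D3:**
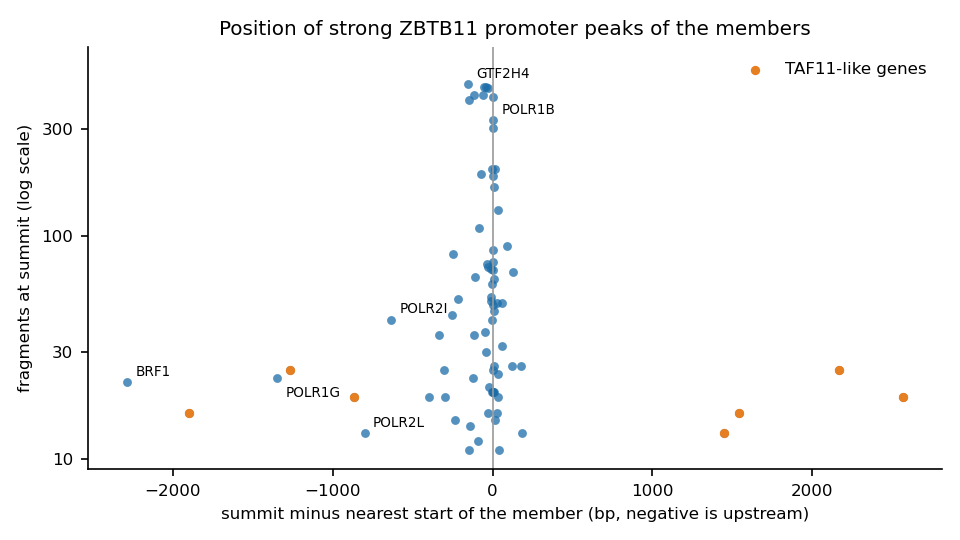
Summit position relative to the nearest start of the member (bp, negative is upstream) against fragments at the summit (log scale) for the 78 members with a strong peak. Peaks with 100 or more fragments lie close to the start, and the distant ones are weak and include the TAF11-like genes (orange), BRF1 and POLR1G.

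Some of these promoters are shared with a neighbour. In 21 of the 78 members (26.9%) the strong peak also covered the start of a protein-coding gene on the opposite strand, against 22.6% of all genes with a strong peak. At 100 or more fragments the order was the opposite, with 4 of 17 members (23.5%) against 35.6% of all genes. Among the 21 members the summit was nearer to the member's start in 8 and nearer to the other gene's start in 13. The following examples were chosen after their values were seen. The POLR1C summit lay 150 bp from its own start and 15 bp from that of YIPF3, and the GTF2H3 summit lay 75 bp from its own and 7 bp from that of EIF2B1. At POLR2I the distances were 636 bp and 11 bp from the start of TBCB, and at POLR1G 1346 bp and 229 bp from the start of PPP1R13L. The TFB2M summit lay 85 bp from its start and 98 bp from that of CNST. When every peak was given to the gene of the nearest protein-coding start alone, 62 members kept a strong peak, against 39% of all genes, and POLR1C, GTF2H3, GTF2E1, GTF3C1, TAF1D and POLR2I were among the 16 that lost it.

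The consensus was more frequent at member peaks with 30 or more fragments than at weaker ones. It lay within 50 bp of the summit in 26 of the 74 distinct strong peaks of the members (35.1%, Wilson 95% interval 25.2 to 46.5), against 24.3% of 7697 strong promoter peaks of all protein-coding genes. In equal windows 500 bp to either side it was present in 6.76% of 148 windows for the members and in 4.37% for all genes. Below 30 fragments, 4 of 31 member peaks held it (12.9%), from 30 to 99 fragments 12 of 27 (44.4%) and at 100 or more 10 of 16 (62.5%, 38.6 to 81.5). The shares for all strong promoter peaks in these classes were 15.3%, 31% and 43.4%. At 300 or more the share was no higher, with 60% of the members' peaks and 41.5% of all. The near-identical copies GTF2H2C and GTF2H2 both count there with the same site. Below 30 fragments the members' own flanking windows held it in 7 of 62 (11.3%), close to the share at their summits. The members' intervals include these shares in every class. Among RefSeq promoters of 300 bases, 40 of the 84 matched members (47.6%) held the consensus, against 25.2% of 15843 promoters of protein-coding genes. In CpG-rich promoters it was 55.2% against 28.1%.

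Several of the highest summits lacked the consensus, namely GTF2H4, GTF3C5, GTF3C3 and POLR3B. A related form, CGGAAC, was therefore counted on both strands. It was chosen because it was frequent at the highest promoter peaks of these same data, members included, so its share at the members is a description. It shares CGGAA with CCGGAAG and differs in the next base, so that a match to either form is never a match to the other. CGGAAC lay within 50 bp of the summit in 7 of the 10 member peaks with 300 or more fragments (70%), and in 50.8% of the 400 such promoter peaks of all genes, where 1.75% of flanking windows held it. The near-identical copies GTF2H2C and GTF2H2 are both among these 7 and are not independent. Below 30 fragments the shares were 9.68% and 7.7%, and from 30 to 99 they were 11.1% and 13.1%. In all, 12.4% of RefSeq promoters held it. Sites of some of the members with 300 or more fragments, with CGGAAC in capitals, read as follows.
GTF3C5 (chr9:133030926-133030955, plus strand): acgattccttcgCGGAACaattgaggcgag
GTF3C3 (chr2:196799755-196799784, minus strand): tctggcgcgcacgCGGAACctgagtgctgc
POLR3B (chr12:106357719-106357748, plus strand): gcagggagcgggCGGAACctttctaccgcg
GTF2H2C (chr5:69560116-69560145, plus strand): ctctgcagcatcCGGAACgtttcggcgtgg
POLR1C (chr6:43516907-43516936, plus strand): ggtgggatcggcCGGAACacaaaaaggaga
The motif centre lay 4 bp from the summit in GTF3C5, 18 bp in GTF3C3, 19 bp in POLR3B, 20 bp in GTF2H2C and 18 bp in POLR1C. For POLR1B and GTF2H2, the others of the 7, CGGAAC lay 48 and 20 bp from the summit. In GTF2H2C and POLR1C the consensus and CGGAAC lay on opposite sides of the summit. GTF3C5 holds a further CGGAAC 20 bp from the summit. BRF2 and TAF12 held CCGGAAG without CGGAAC. GTF2H4, the highest of all members, held neither, and the shorter CGGAA was not in its window either, which says only that these letters are not there.

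**Figure D4:**
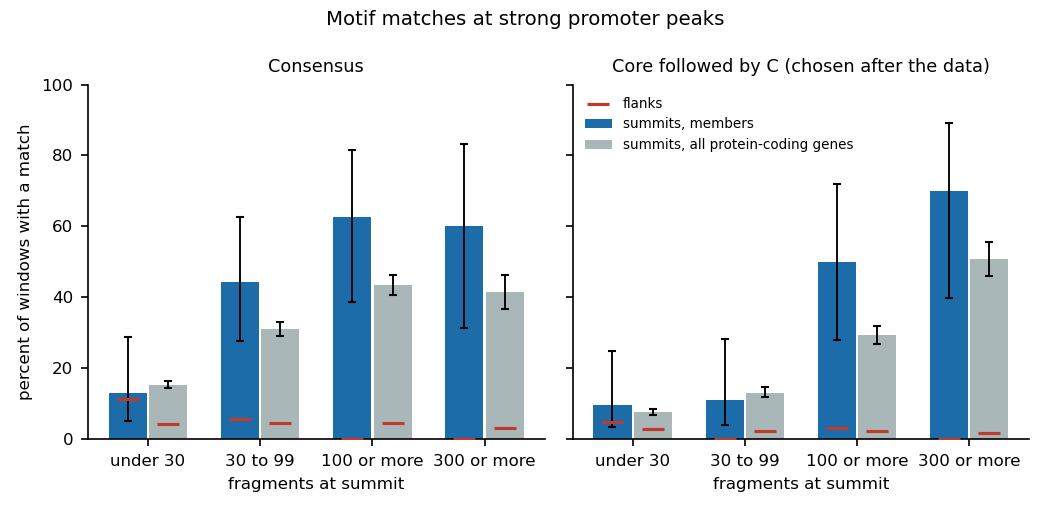
Percent of windows within 50 bp of the summit that hold the consensus (left) or CGGAAC (right), by fragments at the summit, for strong promoter peaks of the members (blue) and of all protein-coding genes (grey), with Wilson 95% intervals, and red dashes for windows 500 bp away. The class of 100 or more includes that of 300 or more, and CGGAAC rises to 70% of member peaks and 50.8% of all peaks in the last class.

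The IgG list served as the control on chromosomes 1, 10 and 21, which hold 8, 4 and 0 members. An IgG peak of any strength lay within 3 kb of 10 of the 12 members, against 68.7% of the 3011 protein-coding genes there. None of the 12 had an IgG peak at p of 1e-05 or less, against 1.99% of genes, whereas 10 of 12 had a ZBTB11 peak at that limit, against 44.9%. IgG summits at the members held 4 to 10 fragments. Most of these IgG peaks lay elsewhere, since a gene can have starts far apart. An IgG peak overlapped the ZBTB11 peak in 4 of the 12, TAF12, TAF13, POLR3GL and TAF3.

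Within the ZBTB11 peak of TAF12 the ZBTB11 summit held 304 fragments and the IgG summit 7, and the strongest IgG peak of this gene, with 10, lay outside it. TAF13 had 64 fragments in the ZBTB11 library and 7 in the IgG library, a ratio of 9.14 (exact conditional 95% interval 4.19 to 23.7). POLR3GL had 23 and 6, a ratio of 3.83 (1.52 to 11.5). TAF3 had 6 and 7, a ratio of 0.857 (0.238 to 2.98), and was the only one of the 12 with fewer fragments in the ZBTB11 library. These ratios are of raw fragments and are not scaled to the size of either library.

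For the other 8 members no listed IgG peak overlapped the ZBTB11 peak. TFB2M, with 108 ZBTB11 fragments, and TFAM, with 50, had no IgG peak within 3 kb of any start. The strongest IgG peaks of TAF5L, with 7 fragments, and POLR3C, with 4, lay 1.07 and 1.74 kb from the ZBTB11 summits, which held 36 and 32. At POLR3A the IgG peak with 8 fragments lay 34.6 kb from the ZBTB11 summit with 13, at TAF1A it lay 21 kb away with 5 against 16, at TAF5 16.5 kb away with 7 against 11, and at GTF2B 6.97 kb away with 5 against 10. These values describe different places and give no ratio.

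**Figure D5:**
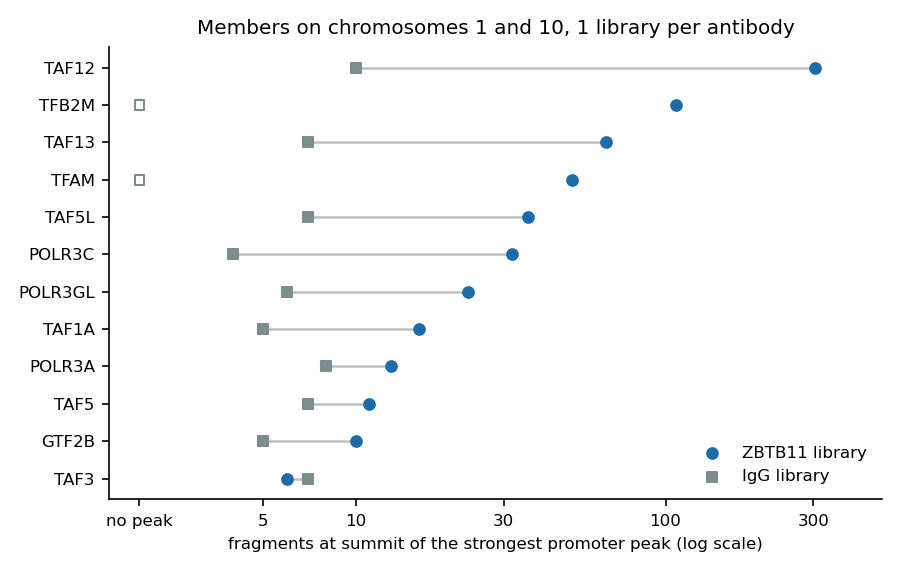
Fragments at the summit of the strongest promoter peak (log scale) in the ZBTB11 library (circles) and the IgG library (squares) for the 12 members on chromosomes 1 and 10. Open squares mark TFB2M and TFAM, which have no IgG peak, and the IgG peak plotted overlaps the ZBTB11 peak at TAF13, POLR3GL and TAF3 and lies elsewhere for the others. The TAF12 square, at 10, is an IgG peak outside its ZBTB11 peak.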

How the data were processed

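ChIP-seq was done by the authors in untreated NCI-H1299 cells. By the study's methods, BWA placed the read pairs on hg38, and MACS called the peaks of each antibody on its own at a p-value below 0.05. The deposited lists have the layout of later MACS releases. The values used were deposited by the authors for each peak, namely −log10 q, −log10 p and the fold enrichment ratio over local background. No use was made of the deposited score. Read totals are not given in the lists, so depth is described by the background and the pileup.

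Summit fragments and background were solved from the fold enrichment and −log10 p, assuming a Poisson background and the pseudocount of MACS, to within 0.001 of −log10 p. This succeeded for 100% of peaks, and the solver, the assignment of peaks and the motif scan were tested on simulated data. Starts came from GENCODE release 44. Python 3.11.15, pandas 2.3.3 and scipy 1.17.1 were used. Copies are exact matches of the 31 bases at the summit on both strands of hg38.

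Sample titles gave the groups. The members, the systems and the lists were chosen with earlier results of these data known. In each system the 4 members with the largest −log10 p and the 2 with the smallest were named, together with members without a peak, those on chromosomes 1 and 10, paralog pairs, TBP, the TFIIIB genes and the mitochondrial genes. Further members were named to complete their complexes. The value of 1 member is not reported here.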

Additional observations from a re-analysis of the deposited data

How the results depend on the processing

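Of 70 alternatives over 15 counts, medians and shares, 62 left the value within 1.5 times the count or within its counting interval. Strong peaks at the members numbered 75 within 1 kb, 77 at canonical starts, 62 by nearest start, 82 at a q-value of 0.05 or less and 60 at p of 1e-10 or less, against 44.8%, 43.4%, 39%, 55.3% and 31.8% of all genes. At p of 1e-10 or less, TFIID and its paralogs fell to 12 of 33, against the 31.8% of all genes. The share of strong member peaks with the consensus was 16.2% within 25 bp of the summit and 52.7% within 100 bp, where all genes gave 12.3% and 37.3%. At p of 1e-05 or less, 0 members on chromosomes 1 and 10 had an IgG peak. Alternatives added after the data were seen gave 48 strong peaks in the 58 members with CpG-rich promoters, against 64.2% of such genes. In place of the consensus, CGGAAC gave a share of 18.9% and CGGAA 58.1%. There were 63 strong peaks in members whose summit has no further exact copy. That count leaves out the 17 members whose summit has more than 1 copy. Copies were not counted for all genes, so it has no share to compare with. Counts by nearest start in each system were also added then, and the shared subunits fell from 5 to 3 of 7. The RNA polymerase II factors other than TFIID fell from 13 to 9 of 18 and TFIID with its paralogs from 21 to 17 of 33. RNA polymerase I with SL1 fell from 7 to 5 of 10 and the RNA polymerase II set from 11 to 9. For RNA polymerase III the subunits fell from 8 to 7 of 10 and the factors from 9 to 8 of 10. Only TBP and the mitochondrial genes lost none. No paired analysis was possible because only 1 library stands for each antibody. One library per antibody, an IgG list used on 3 chromosomes, an unknown read depth and the absence of any expression measure limit every comparison, and pileups under about 10 fragments lie near those of the IgG list.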
